A study of Mus musculus with 14 samples.

Results

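Gfap-positive cells of a BMP4 culture of mouse neural stem cells were chosen by their deposited counts of Gfap, 1 or more per cell, and 329 of the 887 cells of that culture met this rule. The other 558 cells had 0 Gfap counts and served as the comparison, and the 4 single-cell libraries of the series together held 6385 cells. Gfap encodes glial fibrillary acidic protein, an intermediate filament of the cytoskeleton, and since the cells were selected on it, its own level is given below as a description only. Gfap (ENSMUSG00000020932) lies on chromosome 11 from 102887336 to 102897200 in the RefSeq annotation of the mm10 assembly.

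In the adult brain Gfap marks astrocytes and also the slowly dividing neural stem cells that line the wall of the lateral ventricle. Bone morphogenetic proteins such as BMP4 signal through Smad transcription factors and Id genes, and in culture BMP4 is used to bring neural stem cells out of division into a quiescent, astrocyte-related state, whereas EGF, a mitogen, keeps them dividing. Cytokines of the LIF family acting through Stat3 are a second known input to the Gfap gene.

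The BMP4 and EGF cultures were wildtype cells from the subventricular zone of adult mice, each held in the factor for 3 days and each represented by 1 library of 10x Genomics 3′ reads. The series also holds 1 library each of freshly isolated wildtype and APLP1-/- cells, hash tag libraries of those fresh cells, and 8 RNA immunoprecipitation (RIP) libraries from wildtype and CPEB4-/- neurospheres. The labels of the cultures give neither the mice that contributed cells nor whether animals were pooled. With 1 library per condition, and cells of 1 library not being replicates, no test was possible. Every interval below is an exact 95% interval that covers counting error only.

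Total counts in the BMP4 cells ran from 4749 to 63216, with a median of 17355. The BMP4 library shared 1 cell barcode with the EGF library, 1 with the fresh wildtype library (held by a Gfap-positive cell) and 2 with the fresh APLP1-/- library. In the EGF culture 2 of 1410 cells had a Gfap count (0.142%, 0.0172 to 0.511%), at a deeper median of 22866.5 counts per cell. Summed over all cells, Gfap stood at 42.3 CPM (counts per 1000000 of all counts, 39.3 to 45.5) in the BMP4 culture and at 0.0595 CPM (0.00721 to 0.215) in the EGF culture. No cell type that lacks Gfap could be named within the BMP4 library, so the part that free RNA has in its share was not tested.

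The Gfap-positive cells carried very little Gfap each. Of the 329 cells, 184 had 1 count, 65 had 2, 32 had 3 and 42 had 4 to 8. The remaining 6 cells had between 13 and 24 counts, and these 6 held 101 of the 732 Gfap counts of the library (13.8%). The 48 cells with 4 or more counts held 44.0% of all Gfap counts. The rule therefore separated cells at the limit of detection: just inside it lie the 184 cells with a single count, which is worth 50.7 CPM in a Gfap-positive cell of median depth, and just outside it lie 558 cells with none.

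**Figure D1:**
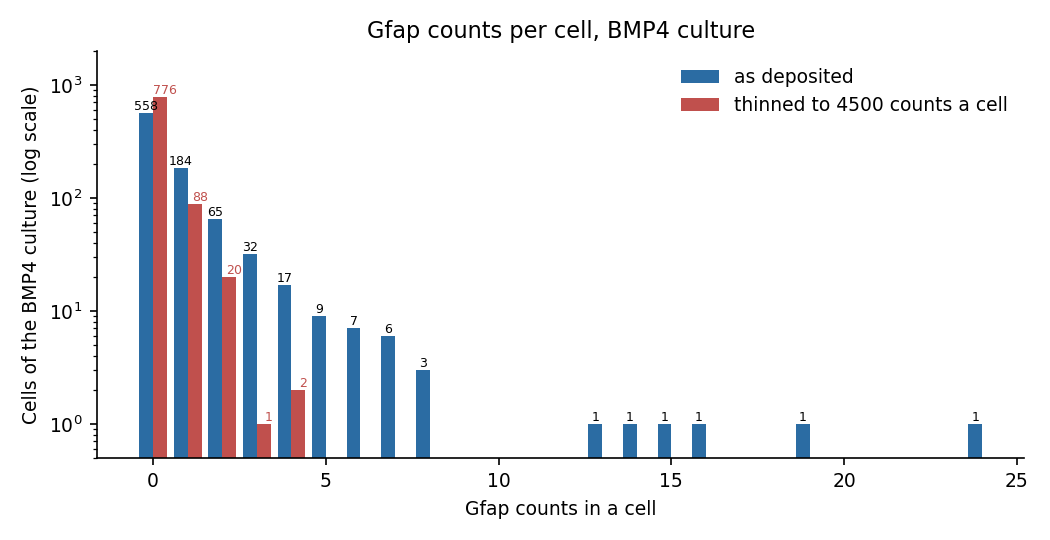
The x axis gives the Gfap counts in a cell and the y axis, on a log scale, the number of BMP4 culture cells, with blue bars for the counts as deposited and red bars for the same cells thinned at random to 4500 counts each. As deposited, 558 cells lie at 0 and 184 at 1, and 6 cells lie apart at 13 or more; after thinning, 776 cells lie at 0.

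Whether a cell counted as Gfap-positive moved with its sequencing depth. Gfap-positive cells had a median of 19742 total counts and 4472 detected genes, against 16139 counts and 4024 genes in Gfap-negative cells. When cells were split into 5 equal groups by depth, the share with Gfap was 20.8% in the shallowest group, then 26.6%, 33.9% and 46.9%, and 57.3% in the deepest. After each cell was thinned to 4500 counts, the share over all cells was 12.5% (10.4 to 14.9%, 111 of 887). The level of Gfap, its summed counts over the summed depth, was also higher in the deeper cells, at 28.2, 25.6, 35.1, 52.9 and 50.04 CPM from the shallowest to the deepest group. Median detected genes were 1861 and 1851 in positive and negative cells once thinned, and mitochondrial genes took a median of 9.61% and 8.84% of counts.

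**Figure D2:**
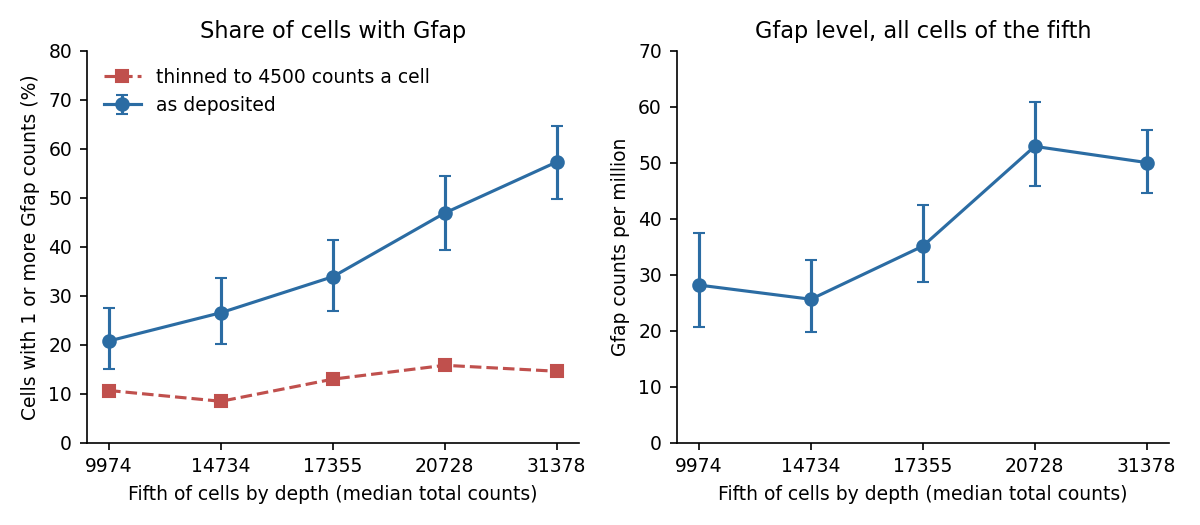
Both x axes give 5 equal groups of BMP4 culture cells, labelled by their median total counts. The left y axis is the percentage of cells with Gfap, as deposited (blue, exact binomial intervals) and after thinning (red), and the right y axis is the Gfap level in CPM with exact Poisson intervals; the deposited share climbs from 20.8% to 57.3%.

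Thinned Gfap counts averaged 0.157 per cell, and their variance was 1.35 times that mean.

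Because depth and the rule were tied, Gfap-positive and Gfap-negative cells were compared at an equal depth of 4500 counts per cell, drawn at random. All cells reached that depth. Transcriptomes of the 2 classes were alike in most genes: of 2844 genes with 200 or more thinned counts, 91.1% differed by less than 1.25-fold. Only 5 genes were 1.5-fold or more higher in Gfap-positive cells (0.176%) and 6 were 1.5-fold or more lower (0.211%). The 5 were Plat (1.66), which encodes tissue plasminogen activator, Fam171b (1.57), Tmx3 (1.55), Ndrg4 (1.55) and Slc31a1 (1.51), a copper transporter. The 6 were Stmn1 (0.475), Nnat (0.587), Elp5 (0.588), Lypd1 (0.6001), Pim3 (0.634) and Stk11 (0.667).

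Most of these single genes depended on which counts the thinning drew. When the thinning was repeated with another random draw, 3 of the 12 genes with the highest lower bound and 4 of the 12 with the lowest upper bound were again among the 12. Without thinning, 21 of 7546 genes were 1.5-fold or more higher and 33 lower. Some of the genes described next are therefore also given as deposited, and some within 3 equal groups of cells by depth. Within those groups the classes lay closer in depth: median counts of positive and negative cells were 12278 and 11833 in the shallow group, 17778 and 17205 in the middle group, and 29092 and 25936 in the deep group. Where only a thinned ratio is given, as for most further list members, it rests on 1 random draw.

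Astrocyte genes stood somewhat higher in the Gfap-positive cells. Aqp4, the main water channel of astrocyte end-feet, was at 846 CPM in Gfap-positive and 648 CPM in Gfap-negative cells after thinning, a ratio of 1.31 (1.21 to 1.41). As deposited its ratio was 1.36 (1.31 to 1.41), and within the shallow, middle and deep groups it was 1.12, 1.24 and 1.34. Aqp4 was at 0.417 CPM in the EGF culture, so it was far higher in both classes of BMP4 cells than in EGF cells. Slc4a4, a sodium bicarbonate cotransporter of astrocytes, was at 459 and 337 CPM (ratio 1.36, 1.23 to 1.51). Its ratios as deposited were 1.18, 1.37 and 1.28 in the 3 depth groups. Both genes were thus higher in Gfap-positive cells at each depth, by less than 1.5-fold.

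The other defining markers of astrocytes differed less. As deposited, Gja1 had a ratio of 1.24 (1.15 to 1.33), Aldh1l1, a folate enzyme used as an astrocyte marker, 1.22 (1.07 to 1.39), Slc1a3 1.17 (1.14 to 1.21), the glutamate transporter Slc1a2 1.15 (1.11 to 1.19), and the glycolytic enzyme Aldoc 1.14 (1.07 to 1.22). The calcium-binding protein S100b went the other way at 0.951 (0.903 to 1.00). Ratios of Gja1 were 0.948, 1.32 and 1.21 in the shallow, middle and deep groups, and those of Slc1a3 were 1.01, 1.14 and 1.14, so the shallow cells did not show a higher level of either. All 7 of these markers were detected in both classes, and their summed level was 3880 CPM in Gfap-positive and 3275 CPM in Gfap-negative cells. Per cell, the sum ran from 1073 to 7736 CPM (median 3518) in Gfap-positive cells and from 236 to 7418 CPM (median 3098) in Gfap-negative cells. The 2 classes overlapped over almost the whole range, and cells without a Gfap count held counts of the same 7 markers.

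Astrocyte and quiescence genes were also taken as a list of 30, of which 27 had 20 or more thinned counts. None was 1.5-fold or more higher and 1, the angiotensinogen gene Agt, was that much lower, beside 5.64% and 5.84% of the 9691 genes measured at this level. Of the 27, 21 were above a ratio of 1, and the median log2 ratio was 0.16 beside 0.02 for all genes. Sparcl1, a secreted matrix protein of astrocytes, was at 1.13 (1.08 to 1.19). Ndrg2 was at 1.25 (1.02 to 1.53), and the receptor Fgfr3 at 1.47 (0.932 to 2.31). Cst3, Apoe and Htra1 lay near 1, with Apoe at 935 CPM in positive and 932 CPM in negative cells.

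Levels followed the number of Gfap counts in a cell as well as its presence. As deposited, Aqp4 was at 686 CPM in cells with 0 Gfap counts, 873 in cells with 1, 960 in cells with 2 or 3 and 1028 (977 to 1081) in cells with 4 or more. Slc1a3 stood at 1164, 1266, 1405 and 1551 CPM over the same classes, and Gja1 at 146, 164, 184 and 218 CPM. For Slc4a4 the values were 344, 430, 523 and 501 CPM, so the last 2 classes did not differ beyond counting error. The median depth of these classes also increased, from 16139 to 18087.5, 22969 and 26712.5 counts. Within the deep group of cells alone, Aqp4 was at 748.5, 946, 1015 and 1059 CPM and Slc1a3 at 1266, 1323, 1481 and 1578 CPM, the same order. Median depth was 25936, 25511.5, 32366.5 and 32256 counts for the 4 classes there.

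**Figure D3:**
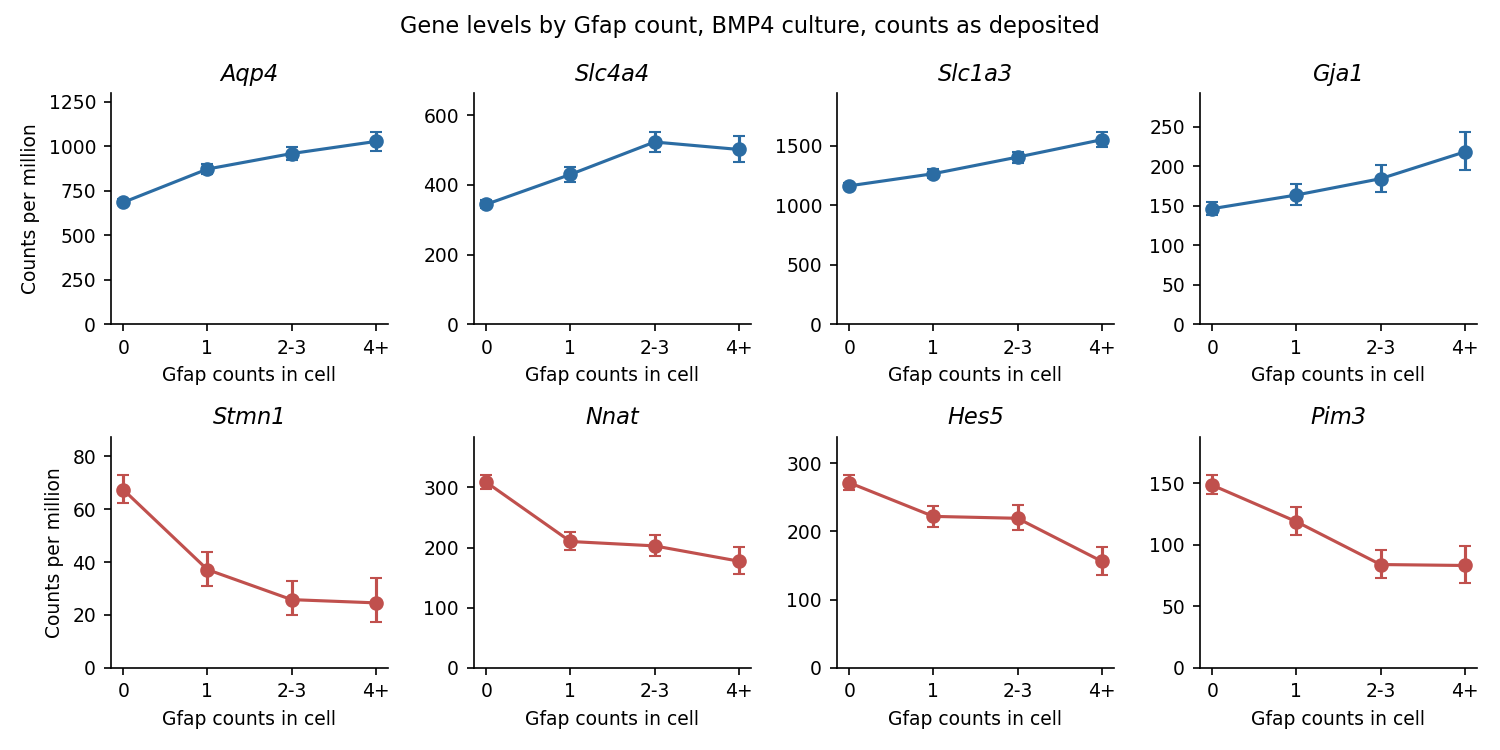
Each panel plots the level of 1 gene in CPM, from counts as deposited, in BMP4 culture cells with 0, 1, 2 or 3, and 4 or more Gfap counts (558, 184, 97 and 48 cells), with exact Poisson intervals. Aqp4 goes from 686 to 1028 CPM across the classes, and Stmn1 from 67.4 to 24.6 CPM.

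Some further genes differed across these classes and were picked after their values were seen. Gabrb1, a subunit of the GABA-A receptor, was at 67.6 CPM in cells with 0 Gfap counts and at 101, 94.2 and 120 CPM in cells with 1, 2 or 3, and 4 or more. Hmox1, the heme oxygenase induced by oxidative stress, was at 44.4, 43.0 and 42.2 CPM in the first 3 classes and at 122 CPM in the cells with 4 or more. Ctnnbip1, an inhibitor of β-catenin, was at 656, 579, 561 and 368 CPM. Apoe was at 877, 953, 858 and 635 CPM, so it was lowest where Gfap was highest. The last class holds only 48 cells.

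Stmn1, Nnat and Pim3 were lower in the Gfap-positive cells. Stmn1, which encodes the microtubule regulator stathmin and is abundant in dividing progenitors and young neurons, was at 34.4 CPM against 72.5 CPM (ratio 0.475, 0.341 to 0.652). By Gfap count it stood at 67.4, 37.1, 25.8 and 24.6 CPM. Its ratio as deposited was 0.847 in the shallow group, 0.476 in the middle and 0.351 in the deep group. In the EGF culture Stmn1 was at 493 CPM, above both BMP4 classes. Nnat, an imprinted gene for the membrane protein neuronatin, was at 184 CPM against 314 CPM (ratio 0.587, 0.510 to 0.674), and at 519 CPM in the EGF culture. Its ratios by depth group were 0.705, 0.776 and 0.556.

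Pim3, a serine/threonine kinase, was at 97.3 CPM against 153 CPM (ratio 0.634, 0.520 to 0.770), with ratios of 0.727, 0.747 and 0.673 by depth group. By Gfap count Pim3 stood at 149, 119, 84.0 and 83.2 CPM. Unlike Stmn1 and Nnat, Pim3 was lower in the EGF culture, at 14.4 CPM, than in either class of BMP4 cells. Lypd1, a modulator of nicotinic receptors, had ratios of 0.678, 0.644 and 0.745 by depth group, and Nell2, a secreted glycoprotein, 0.695, 0.692 and 0.706. Each of these 5 genes was thus lower in Gfap-positive cells at every depth.

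**Figure D4:**
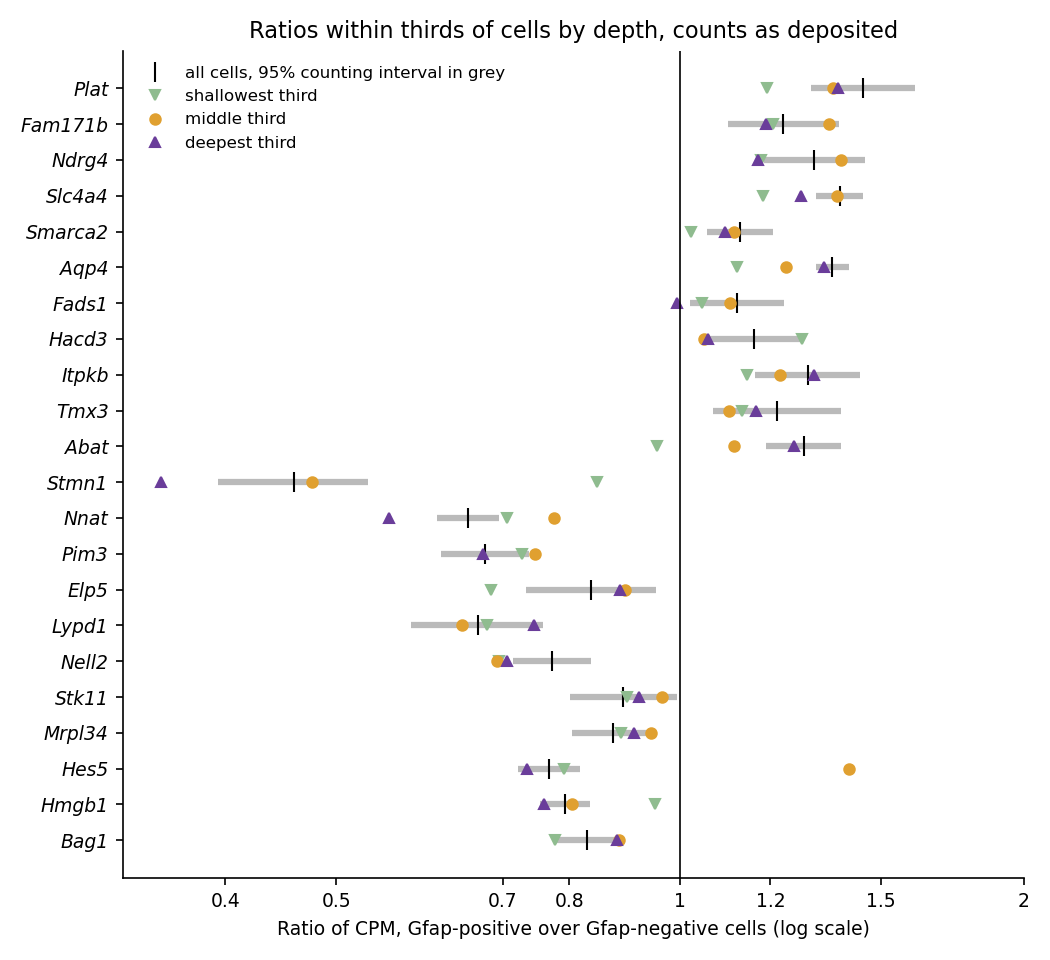
The x axis, on a log scale, gives the ratio of CPM in Gfap-positive over Gfap-negative cells as deposited, for genes among the 12 with the highest lower bound and the 12 with the lowest upper bound after thinning. Black ticks with grey exact intervals are all cells, and triangles and circles are 3 equal groups of cells by depth; Aqp4 and Slc4a4 lie above 1 and Nnat, Pim3 and Nell2 below 1 in each group, while Hes5 lies at 1.41 in the middle group.

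Among the remaining genes of the 12 highest, Plat kept the largest ratio as deposited, 1.45 (1.30 to 1.61), with 1.19, 1.36 and 1.38 by depth group. Ndrg4 was at 1.31 (1.18 to 1.45) and Itpkb, an inositol phosphate kinase, at 1.29 (1.16 to 1.44). Abat, the enzyme that breaks down GABA, was at 1.28 (1.19 to 1.38), and lay below 1 in the shallow group (0.954). The chromatin remodeller Smarca2 was at 1.13 (1.06 to 1.21) and the desaturase Fads1 at 1.12 (1.02 to 1.23), against 1.41 and 1.44 after thinning, so the thinned values of these genes were the larger. Among the lowest, Hmgb1, an abundant chromatin protein, was at 324 against 411 CPM after thinning (0.788, 0.706 to 0.879) and at 0.793 as deposited, and at 1646 CPM in the EGF culture. Elp5, Stk11, Mrpl34 and Bag1 had ratios of 0.837, 0.892, 0.874 and 0.830 as deposited, nearer to 1 than after thinning.

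Notch genes lay on both sides of a ratio of 1. Of 20 genes on the Notch list 15 were measured, none was 1.5-fold or more higher and 1, the target Hey2, was lower (background 5.64% and 5.84%), with a median log2 ratio of −0.10. Hes5, the Notch target that marks neural stem cells, was at 230 CPM against 299 CPM after thinning (ratio 0.767, 0.673 to 0.873). By Gfap count it stood at 271, 222, 219 and 156 CPM. Its direction depended on the cells used, since the ratio was 0.791 in the shallow, 1.41 in the middle and 0.735 in the deep group. Hes1, another target, was at 336 and 389 CPM (0.864, 0.774 to 0.963), and the ligand Jag1 at 144 and 186 CPM (0.772, 0.653 to 0.910).

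Genes of the BMP pathway hardly differed between the classes. Of 24 listed genes 22 were measured, 1 (the BMP antagonist Chrdl1) was 1.5-fold or more higher and none lower, near the 5.64% and 5.84% of all genes, and the median log2 ratio was 0.02. The receptors Bmpr1a and Bmpr2 had ratios of 0.995 (0.869 to 1.14) and 1.14 (1.01 to 1.29). The Id genes, direct targets that hold back differentiation factors, stood at 0.954 (0.858 to 1.06) for Id1, 0.967 (0.914 to 1.02) for Id2 and 0.943 (0.873 to 1.02) for Id3. The inhibitory Smad6 was at 33.1 CPM against 46.2 CPM (0.716, 0.502 to 1.01) after thinning, and at a ratio of 0.981 (0.851 to 1.13) as deposited. The intervals of Id1, Id2 and Id3 together reach no lower than 0.858 and no higher than 1.06.

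LIF-type cytokine and Stat3 genes had the highest median of the lists with 10 or more measured members, 0.25 on the log2 scale over 11 of 20 genes. None passed 1.5-fold in either direction, beside 5.64% higher and 5.84% lower of all genes. The shared receptor subunit Il6st was at 75.7 CPM against 55.0 CPM (1.38, 1.06 to 1.78), the kinase Jak1 at 62.1 against 45.8 CPM (1.36, 1.02 to 1.80), Stat3 at 115 against 96.4 CPM (1.19, 0.973 to 1.46) and the feedback inhibitor Socs3 at 23.0 against 15.9 CPM (1.44, 0.885 to 2.34). As deposited the ratio of Socs3 was 1.06 (0.848 to 1.32). The list's median ranged from −0.21 to 0.44 over the alternatives, with 13 of 16 above 0.

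Summed counts of the other intermediate filament genes were level between the classes (ratio 0.982, 0.900 to 1.07), while the median log2 ratio of the 6 measured genes was −0.29. Vim, the vimentin that co-assembles with Gfap, was higher in the cells with most Gfap. Over all Gfap-positive and Gfap-negative cells Vim was at 411 CPM against 399 CPM after thinning (1.03, 0.930 to 1.14). By Gfap count it was at 403, 389 and 412 CPM as deposited in cells with 0, 1 and 2 or 3 counts, and at 535 CPM (498 to 574) in the 48 cells with 4 or more. In the deep group Vim stood at 435, 435, 403 and 530 CPM (490 to 572 for the last), so the step at 4 or more was seen there too. The 16 listed genes together, of which Vim held most counts, summed to 564, 545, 568 and 720 CPM over the 4 classes. Plec, the plectin that links filaments, was at 101, 109, 112 and 135 CPM, and Nes, the nestin of neural progenitors, after thinning at 12.2 CPM in positive and 10.4 CPM in negative cells (1.17, 0.606 to 2.23). Of 6 measured genes of 16, the nuclear lamins Lmna, Lmnb1 and Lmnb2 were 1.5-fold or more lower and none was higher, beside 5.84% lower and 5.64% higher of all genes. Lmna was at 16.9 CPM against 31.9 CPM (0.530, 0.324 to 0.840), and as deposited at 0.758 (0.609 to 0.939). Of 26 genes linked with reactive astrocytes only 3 were measured. Of these 1, Emp1, was 1.5-fold or more lower and none was higher, beside 5.84% and 5.64% of all genes. Cd44, the hyaluronan receptor, was at 53.4 CPM against 49.4 CPM (1.08, 0.804 to 1.44).

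Genes of lipid handling were slightly higher. Of 22 listed, 18 were measured and 15 lay above a ratio of 1, with a median log2 ratio of 0.15. Lpl, lipoprotein lipase, was the 1 gene past 1.5-fold, at 32.4 CPM against 16.7 CPM (1.94, 1.25 to 3.01), and as deposited at 1.46 (1.21 to 1.76), while none was 1.5-fold or more lower; 1 of 18 is near the 5.64% of all genes. The desaturase Scd2 was at 1.22 (1.15 to 1.29) and the fatty acid-binding proteins Fabp5 and Fabp7 at 1.12 (1.05 to 1.18) and 1.08 (1.04 to 1.12). Cidea, a lipid droplet protein, went the other way at 323 CPM against 393 CPM (0.821, 0.735 to 0.917). All 20 genes of cholesterol synthesis were measured, and their median was 0.11. None passed 1.5-fold, beside 5.64% higher and 5.84% lower of all genes.

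Genes of mitosis were lower in the Gfap-positive class, and few cells held most of their counts. Of 28 genes of G2 and M phase 17 were measured, none was 1.5-fold or more higher, 8 were 1.5-fold or more lower beside 5.84% of all genes, and all 17 lay below a ratio of 1. The summed level was 217 CPM against 314 CPM (ratio 0.693). Cenpa, the histone variant of centromeres, was at 12.2 against 29.9 CPM (0.407, 0.229 to 0.688), and Smc4, a condensin subunit, at 14.2 against 30.3 CPM (0.469, 0.274 to 0.768). As deposited, 10 cells held 33.8% of all counts of these genes, and 8 of the 10 had 0 Gfap counts. Cells with 1000 or more CPM of these genes numbered 10 of 329 in the Gfap-positive class (3.04%, 1.47 to 5.52%) and 27 of 558 in the negative class (4.84%, 3.21 to 6.96%), so the shares overlapped within counting error. Those 37 cells held 63.7% of all counts of these genes. Without them the list stood at 121 CPM in positive and 131 CPM in negative cells. Because they were chosen by the same counts, leaving them out draws the classes together by itself. It cannot show whether the other cells are alike.

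Stmn1 did not depend on those cells to the same degree. Without them it was at 19.4 CPM in Gfap-positive and 35.8 CPM in Gfap-negative cells, Nnat at 192 and 300 CPM, and Aqp4 at 945 and 700 CPM. The limit of 1000 CPM was chosen after the data were seen.

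The share of cells with a cycle gene count was close in both classes at equal depth, with overlapping intervals. After thinning, 24 of 329 Gfap-positive cells had a count of Mki67, Top2a or Cdk1, genes transcribed in dividing cells (7.29%, 4.73 to 10.7%), against 46 of 558 Gfap-negative cells (8.24%, 6.10 to 10.8%). Unthinned, the shares were 23.4% and 16.5%, in the opposite order, beside the greater depth of the Gfap-positive cells. Seen from the other side, 24 of 70 cells with such a count (34.3%, 23.3 to 46.6%) and 305 of 817 other cells (37.3%, 34.0 to 40.8%) had Gfap. Counts of Gfap and of a cycle gene thus occurred together under 24 cell barcodes. The part that free RNA or doublets have in this was not tested. Of 28 genes of S phase 13 were measured, 2 were 1.5-fold or more higher and 4 lower (5.64% and 5.84% of all genes), with a median log2 ratio of −0.34. Cell cycle regulators of G1 had 18 of 20 measured, of which 1 (Ccnd1, cyclin D1) was lower and none higher, near the 5.84% and 5.64% of all genes, and the inhibitor Cdkn1a was at 432 against 471 CPM (0.917, 0.831 to 1.01).

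Genes of neural stem cells were present in both classes. Of 20 listed 17 were measured, 1 (Sox3) was 1.5-fold or more higher and none lower, near the 5.64% and 5.84% of all genes. Egfr, the receptor for EGF, was at 21.6 CPM against 16.3 CPM after thinning (1.32, 0.807 to 2.15) and at 22.5 against 12.4 CPM as deposited (1.82, 1.43 to 2.31). Its ratios as deposited were 1.62, 1.83 and 1.78 in the shallow, middle and deep groups, but it ranged from 0.851 to 1.98 over all alternatives, with 13 of 16 above 1. In the EGF culture Egfr was at 78.1 CPM. The receptor phosphatase Ptprz1 was at 921 against 782 CPM (1.18, 1.10 to 1.26).

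Housekeeping groups were nearly level between Gfap-positive and Gfap-negative cells, with small shifts by Gfap count. All 39 ribosomal protein genes were measured, and none passed 1.5-fold, beside 5.64% higher and 5.84% lower of all genes. Of the 39, 38 lay below a ratio of 1, with a median log2 ratio of −0.05. All 13 mitochondrially encoded genes were measured with a median of 0.02. By Gfap count, as deposited, mitochondrially encoded genes summed to 90722, 93406, 97736 and 98469 CPM. Ribosomal protein genes summed to 73965, 71716, 69162 and 67649 CPM over the same classes. In the deep group the first and last classes stood at 90955 and 99321 CPM, and at 73070 and 67879 CPM. The metallothionein Mt1, which binds zinc, was at 5533 against 5187 CPM (1.07, 1.04 to 1.10). Glycolysis and nuclear oxidative phosphorylation had medians of 0.07 and 0.04, and none of the 25 genes of the latter passed 1.5-fold, beside the same shares of all genes.

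**Figure D5:**
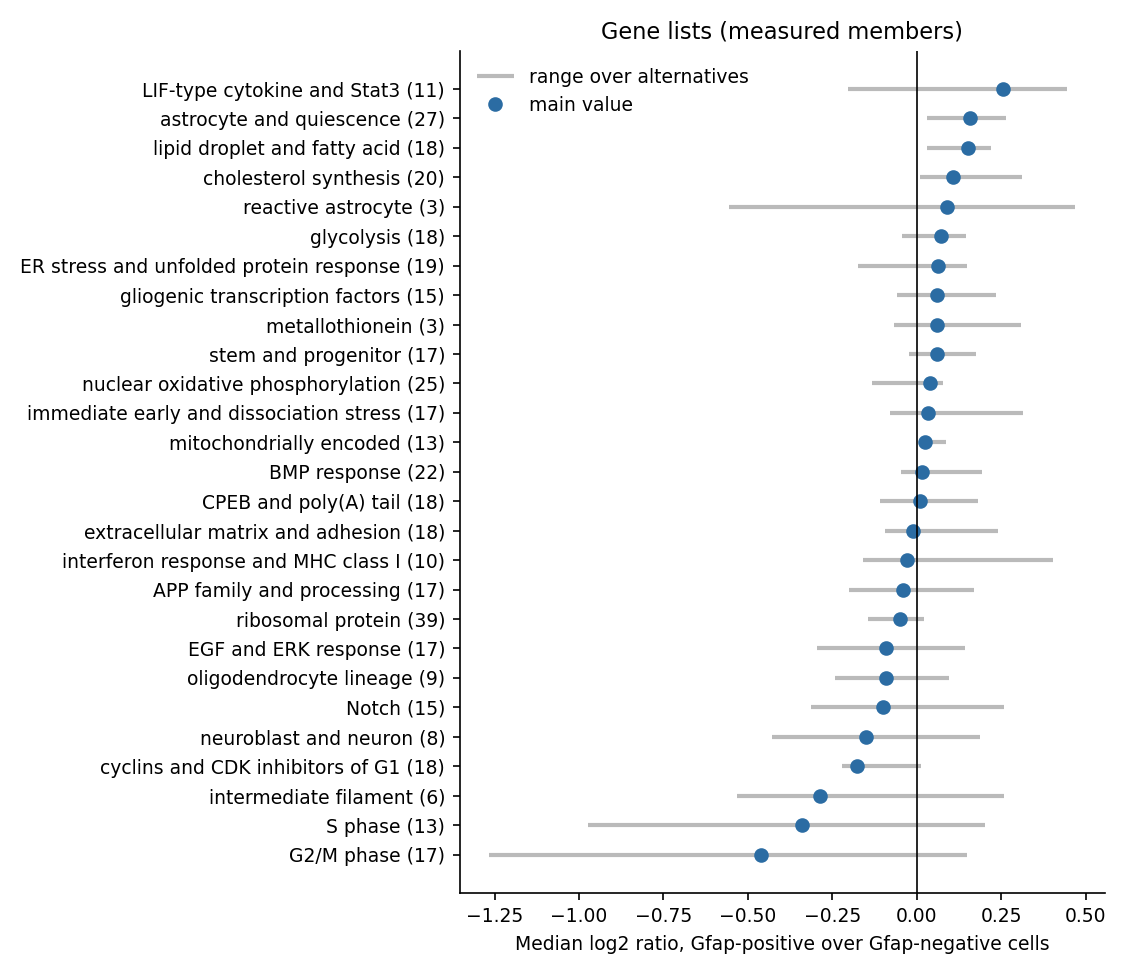
Blue points give the median log2 ratio of thinned CPM, Gfap-positive over Gfap-negative cells, for each list with 3 or more measured members (the number measured is in parentheses), and grey lines give the range over the alternative settings. The astrocyte and quiescence, lipid, cholesterol and mitochondrially encoded lists stay above 0 over their whole range, while the G2/M list, at −0.46, reaches from −1.27 to 0.15. The main median of all genes measured was 0.0154, and the lowest values of the cholesterol (0.0100) and mitochondrially encoded (0.0117) lists lay below it.

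Microglial and endothelial markers were almost absent from the Gfap-positive cells. The 5 microglial markers summed to 6 counts (0.786 CPM), with C1qa, Cx3cr1, Aif1 and Csf1r at 0, and the 4 endothelial markers to 9 counts, with Cdh5 and Cldn5 at 0. Ependymal markers stood at 20.7 CPM in positive and 15.6 CPM in negative cells, with Tmem212 at 0 in both. Foxj1, the regulator of motile cilia, had a ratio of 1.37 (1.06 to 1.77) as deposited. The 4 neuroblast markers summed to 12.2 and 16.6 CPM. Markers of the oligodendrocyte lineage were not rare: the 4 precursor markers summed to 155 CPM in positive and 163 CPM in negative cells, of which Olig2, a transcription factor of that lineage that neural progenitors also express, gave 147 and 154 CPM, while Pdgfra and Sox10 had 2 counts and 1 count in positive cells. The myelin enzyme gene Cnp was at 46.8 and 50.2 CPM. Oligodendrocyte markers summed to 74.9 CPM in positive and 135 CPM in negative cells, with Mog at 0 in both. Per cell, however, their median was 59.2 CPM in positive and 58.2 CPM in negative cells. The highest cell reached 323 CPM in the positive and 13601 CPM in the negative class. Of the 418 counts of Mbp, the myelin basic protein, 393 came from 1 cell of 43673 total counts, and that cell had 0 Gfap counts.

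Freshly isolated cells held Gfap far less often, at a far lower depth. Of 2209 fresh wildtype cells 22 had a Gfap count (0.996%, 0.625 to 1.504%), and of 1879 fresh APLP1-/- cells 13 did (0.692%, 0.369 to 1.18%), with medians of 364 and 424 counts per cell. Summed, Gfap was at 28.2 CPM (19.3 to 39.9) in fresh wildtype cells and 16.3 CPM (9.95 to 25.2) in fresh APLP1-/- cells, beside 42.3 CPM in the BMP4 culture. The deposited counts of fresh cells did not list every gene of the cultures, Tubb3 being 1 that was missing. CPM of fresh and cultured cells thus rest on unlike sets of genes. In both fresh libraries Slc1a3 was higher in the cells with Gfap, at 7787 CPM (6125 to 9760) against 4444 CPM in wildtype and 5153 CPM (3933 to 6633) against 3107 CPM in APLP1-/- cells. Aldoc was at 2076 CPM (1268 to 3207) against 757 CPM in wildtype. In APLP1-/- cells Aldoc was at 773 CPM (353 to 1467) against 552 CPM, within counting error. Gja1 stood at 10071 CPM (8167 to 12285) against 8537 CPM in wildtype, within counting error. In APLP1-/- cells it stood at 9534 CPM (7843 to 11481) against 4737 CPM. Slc4a4 was at 519 CPM (169 to 1211) against 627 CPM in wildtype and at 601 CPM (242 to 1239) against 370 CPM in APLP1-/- cells. Aqp4 had only 2 and 3 counts in the fresh cells with Gfap, too few to compare. Fresh cells without Gfap also held the neuroblast marker Dcx, at 238 CPM in wildtype and 217 CPM in APLP1-/- cells. Fresh cells with Gfap had 0 Dcx counts, with upper bounds of 383 and 317 CPM. In the neurosphere input of the RIP libraries Gfap had 37 counts in replicate 1 and 10 in replicate 2, and at most 3 counts in each of the other 6 libraries.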

How the data were processed

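The deposited files used here hold whole-number counts per gene and cell (single-cell libraries) or per gene and library (RIP), made by the authors. Bowtie2, SAMtools and Cell Ranger, with mm10 as the build, are named per the submitters' processing notes; versions, annotation, filters on cells and any removal of doublets: not given in the sources used here. Each culture table lists 27998 genes, of which 98.7% were paired with a symbol. No doublet caller or free RNA correction was run, and hash tag libraries were not used.

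Cells of the BMP4 culture were classed by their deposited Gfap counts, thinned without replacement to 4500 counts with a fixed seed, and summed per class to CPM. Ratios carry exact conditional (Clopper-Pearson) 95% intervals, levels exact Poisson and shares exact binomial (Clopper-Pearson) intervals, all for counting error only. Calls used 1.5-fold among genes with 200 or more thinned counts, or 20 or more for members of the 30 lists, and list medians used a pseudocount of 0.5 counts. Named genes were the 12 with the highest lower bound and the 12 with the lowest upper bound of the ratio, none with over 10% of its counts in 1 cell, then the highest and lowest member of each list with 50 or more counts, and markers of other cell types; further list members and genes compared by Gfap count were added after their values were seen. A few genes that meet the rule are not reported here. The members, lists and rules were chosen with earlier results of these data known. Alternatives changed the classes, the thinning, the gene minimum and the cells used. The code was tested on simulated data. Python 3.11.15, NumPy 2.4.6, SciPy 1.17.1 and pandas 2.3.3 were used.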

Additional observations from a re-analysis of the deposited data

How the results depend on the processing

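No paired analysis was possible because each culture is 1 library and no test was made. The genes 1.5-fold or more higher and lower numbered 5 and 6 of 2844 measured. The number measured changed with the setting and is given each time. With classes made after thinning they were 18 and 52 of 2844, and for cells with 2 or more Gfap counts 24 and 31 of 2307. Without thinning they were 21 and 33 of 7546, and with thinning to 9000 counts (which left out 76 cells) 9 and 16 of 4606. A minimum of 100 counts gave 42 and 48 of 4910, and no minimum gave 1728 and 1333 of 12918. They were 2 and 9 of 2642 without cells holding a cycle gene count, and 1 and 7 of 2705 without the deepest 5% of cells. In the shallow, middle and deep groups they were 0 and 8 of 960, 1 and 2 of 942, and 2 and 4 of 979. Settings added after seeing the data gave 75 and 111 of 1981 for 4 or more Gfap counts. The same cells unthinned gave 148 and 164 of 6055. Unthinned, the deep group gave 16 and 40 of 5433 and the middle group 4 and 12 of 3439. Smaller classes have fewer counts per gene. The share of cells with Gfap was 12.5% and 22.9% after thinning to 4500 and 9000 counts, and 16.3% for 2 or more counts. The share of cells with a count of Mki67, Top2a or Cdk1, positive against negative, was 23.4% and 16.5% unthinned. At 9000 counts it was 11.4% and 10.9%. In the shallow group thinned it was 5.97% (4 of 67 cells) and 10.0% (23 of 229). In the middle and deep groups thinned it was 3.88% and 4.17%, and 10.1% and 10.9%. For 4 or more Gfap counts it was 33.3% and 16.5% unthinned. The deep, middle and shallow groups unthinned had 33.3% and 27.7%, 14.6% and 13.5%, and 13.4% and 12.2%. On the log2 scale, direction turned for Lpl with classes made after thinning (−0.0389), Emx2 at 9000 counts (−0.0472), Plat in the shallow group (−0.0598), Mbp without the deepest 5% of cells (0.30) and in the shallow group unthinned (0.11), Ccnd1 in the shallow group thinned (0.00758) and unthinned (0.0807), and Map1b in the deep group (0.59) and for 4 or more Gfap counts unthinned (0.00859); the cause was not tested. A second thinning gave 6 and 7 of 2850 genes.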
